A study of Homo sapiens with 36 samples.

Results

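Receptors of the epidermal growth factor (EGF) family and their ligands were followed at the RNA level in breast cells in which YAP, TAZ, STAT3, JUNB or TEAD proteins had been depleted by siRNA. The 10 genes were chosen by name: the receptor genes EGFR, ERBB2 and ERBB3 and the ligand genes AREG, EREG, HBEGF, TGFA, BTC, EPGN and NRG1, out of 60725 Ensembl genes in the tables. MCF-10A ER-Src is a breast epithelial line that carries the v-Src oncoprotein fused to the ligand-binding domain of the estrogen receptor. Its cells received a control siRNA (Ctrli) or siRNA against YAP (YAPi), TAZ (TAZi), STAT3 (STAT3i) or JUNB (JUNBi), and each was sampled in ethanol (ETH, labelled non-transformed) and in tamoxifen (TAM, labelled transformed). MDA-MB-231, a triple-negative breast cancer line that received no tamoxifen, formed a first set with Ctrli, YAPi, TAZi, YAPi_TAZi (both siRNAs) and TEADi (set 1), and a second set with its own Ctrli, JUNBi and STAT3i (set 2). Each of the 18 groups had 2 libraries, 36 in all, and nothing in the labels says that they came from separate cultures, so the p-values measure only the spread between these samples. The ER-Src growth medium in the labels contains added EGF, an EGFR ligand, together with hydrocortisone, cholera toxin and insulin, so that all ER-Src groups share it. The labelled treatment names tamoxifen together with AZD0530, a Src inhibitor, and neither the time in TAM nor whether the ETH cells received AZD0530 is given there.

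EGFR, ERBB2 and ERBB3 are membrane receptors that act as dimers. EGFR binds amphiregulin (AREG), epiregulin (EREG), heparin-binding EGF-like growth factor (HBEGF), transforming growth factor alpha (TGFA), betacellulin (BTC) and epigen (EPGN), whereas neuregulin 1 (NRG1) binds ERBB3. ERBB2 has no known ligand of its own and serves as the preferred dimer partner, and ERBB3 signals through its partners because its own kinase is weak. The ligands are made as membrane precursors that are cut from the cell surface by proteases such as ADAM17 and ADAM10, and they feed the RAS and MAP kinase cascade. In breast epithelium AREG is known for its part in ductal growth, and AREG is also a known transcriptional target of YAP.

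Gene positions are those of GRCh38. EPGN (chromosome 4, 74308470 to 74316789, plus strand), EREG (chromosome 4, 74365145 to 74388749, plus strand), AREG (chromosome 4, 74445136 to 74455005, plus strand) and BTC (chromosome 4, 74744759 to 74794523, minus strand) lie within 486 kb of each other. The other ligand genes are HBEGF (chromosome 5, 140332843 to 140346603, minus strand), TGFA (chromosome 2, 70447284 to 70554193, minus strand) and NRG1. The receptor genes are EGFR (chromosome 7, 55019017 to 55211628, plus strand), ERBB2 (chromosome 17, 39687914 to 39730426, plus strand) and ERBB3 (chromosome 12, 56076799 to 56103505, plus strand).

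Promoter sequences from RefSeq (GRCh38.p14) were matched for 8 of the 10 genes. The 250 bases before the start are shown for EPGN, EREG, AREG and HBEGF, the ligand genes on which most of the ER-Src results below turn, because the depleted proteins act at DNA motifs. The strand shown is that of the gene, and capitals mark the motif matches:
EPGN, chr4:74308220-74308469, plus strand: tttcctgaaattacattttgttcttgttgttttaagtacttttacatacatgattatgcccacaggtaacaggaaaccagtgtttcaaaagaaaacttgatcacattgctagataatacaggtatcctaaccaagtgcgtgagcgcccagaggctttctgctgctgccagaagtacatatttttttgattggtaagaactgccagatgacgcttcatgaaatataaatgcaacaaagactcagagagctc
EREG, chr4:74364895-74365144, plus strand: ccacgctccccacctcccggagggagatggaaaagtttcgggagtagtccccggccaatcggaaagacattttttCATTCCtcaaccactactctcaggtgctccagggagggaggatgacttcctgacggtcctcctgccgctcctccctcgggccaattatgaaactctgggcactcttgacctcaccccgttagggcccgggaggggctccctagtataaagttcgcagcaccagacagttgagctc
AREG, chr4:74444886-74445135, plus strand: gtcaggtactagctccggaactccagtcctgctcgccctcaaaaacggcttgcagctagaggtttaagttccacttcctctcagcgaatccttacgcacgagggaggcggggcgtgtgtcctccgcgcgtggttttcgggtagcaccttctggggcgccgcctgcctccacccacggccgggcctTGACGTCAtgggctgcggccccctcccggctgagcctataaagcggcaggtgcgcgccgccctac
HBEGF, chr5:140346604-140346853, minus strand: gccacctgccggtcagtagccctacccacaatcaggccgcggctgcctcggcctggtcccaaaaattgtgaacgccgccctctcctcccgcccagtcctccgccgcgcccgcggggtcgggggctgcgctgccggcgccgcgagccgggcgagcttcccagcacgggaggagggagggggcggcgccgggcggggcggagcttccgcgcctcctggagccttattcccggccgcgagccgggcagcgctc

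The following motifs were searched on both strands, in a window from 250 bases before to 50 bases after each start: TGANTCA (AP-1, to which JUNB belongs), GGAATG (TEAD), TTCNNNGAA (STAT) and TGACGTCA (the cyclic AMP response element, CRE). The CRE does not contain the AP-1 letters. The EREG window held 1 TEAD match, CATTCC on the strand shown, at position -175 from the start. In the AREG window the only match was a CRE at position -65, and the EPGN and HBEGF windows held none of these letters. Of 35116 promoter windows of this length, 7.71% held the AP-1 letters, 14.0% the TEAD letters, 7.66% the STAT letters and 1.85% the CRE. The GC content of the sequences shown was 38.0% for EPGN, 58.0% for EREG, 65.2% for AREG and 76.4% for HBEGF. For EGFR the window at the gene start (chromosome 7, 55018767 to 55019066) held none of these letters. The window at its second annotated start, inside the gene (55109589 to 55109888), had 2 AP-1 matches (TGAGTCA at -232 and TGACTCA at -136) and 1 TEAD match (at -114). ERBB2 had 1 AP-1 match at -222, TGATTCA, with T at the open base N.

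Libraries differed in ways that touch these values. In ER-Src, libraries held between 6416159 and 19153233 rounded expected counts. The set 1 controls of MDA-MB-231 had 13456764 and 13534549, against 1411300 to 2784553 in the 8 knockdown libraries. A group of 7 RNAs without a poly(A) tail took 11.9% to 14.8% of counts in those knockdowns but 0.00285% to 0.00408% in their controls, so that knockdown and library type cannot be told apart there. Set 2 was at 7290495 to 18076140 counts and 0.00409% to 0.0116%. The gap between gene length and effective length was 49.0 bases in the STAT3i and JUNBi libraries of ER-Src and 49.5 bases in the others, which cannot be told apart from these knockdowns. The libraries of a group lay farthest apart in JUNBi ETH and STAT3i ETH (SD of the log2 ratio between libraries 0.701 and 0.507, against 0.215 to 0.288 in the other ER-Src groups). Targeted genes were lower under ER-Src TAM (log2 fold change -2.49 for YAP1, -2.22 for WWTR1, which encodes TAZ, -2.66 for STAT3 and -2.03 for JUNB). Under ETH, YAP1, WWTR1 and STAT3 were at -2.38, -1.86 and -1.88, but JUNB missed the threshold (-1.16, SE 0.39, adjusted p 0.064). STAT3i in TAM also lowered JUNB (-2.41, SE 0.16, adjusted p 2.5e-47), so depletion of STAT3 and of JUNB cannot be told apart in STAT3i TAM. The basal keratin KRT5 was at 1012 to 2622 TPM in ER-Src and at 0 in the MDA-MB-231 controls, the mesenchymal gene vimentin (VIM) at 184 to 338 TPM in ER-Src and at 2524 and 2591 TPM in the set 1 controls, and the leukocyte gene PTPRC did not exceed 0.08 TPM in any library.

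Levels are given in TPM, the share of transcripts scaled to a fixed total per library, which divides by gene length. Changes are log2 fold changes of normalized counts from DESeq2 with their standard error (SE), called at an adjusted p under 0.01 after Benjamini-Hochberg adjustment over all genes tested. The scales differ: the median gene changed by -0.30 in log2 TPM between TAM and ETH in Ctrli, by 0.38 in STAT3i against Ctrli in TAM and by -1.40 to -1.19 in set 1 against its controls, while its log2 fold change in normalized counts stayed between -0.05 and 0.06 in every comparison. Fewer cells of a kind and less RNA per cell cannot be told apart in such bulk samples.

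AREG and EPGN were the most abundant ligand RNAs of ER-Src cells. Over the 20 ER-Src libraries AREG averaged 94.5 TPM (range 56.5 to 178) and EPGN 56.3 TPM (17.9 to 117), which placed them at the 99.2 and 98.6 percentiles of all genes. EGFR followed at 13.4 TPM (6.31 to 24.4) and ERBB2 at 7.77 TPM (5.29 to 12.3). EREG averaged 5.33 TPM, TGFA 3.92, HBEGF 2.59, ERBB3 2.43, NRG1 1.76 and BTC 0.761 TPM, the last with 20 to 96 counts per library. No member had 0 counts in any ER-Src library. The EGFR ligand EGF itself stayed between 0.06 and 0.6 TPM in ER-Src, and the receptor gene ERBB4 was listed at 0 in every library of both lines.

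**Figure D1:**
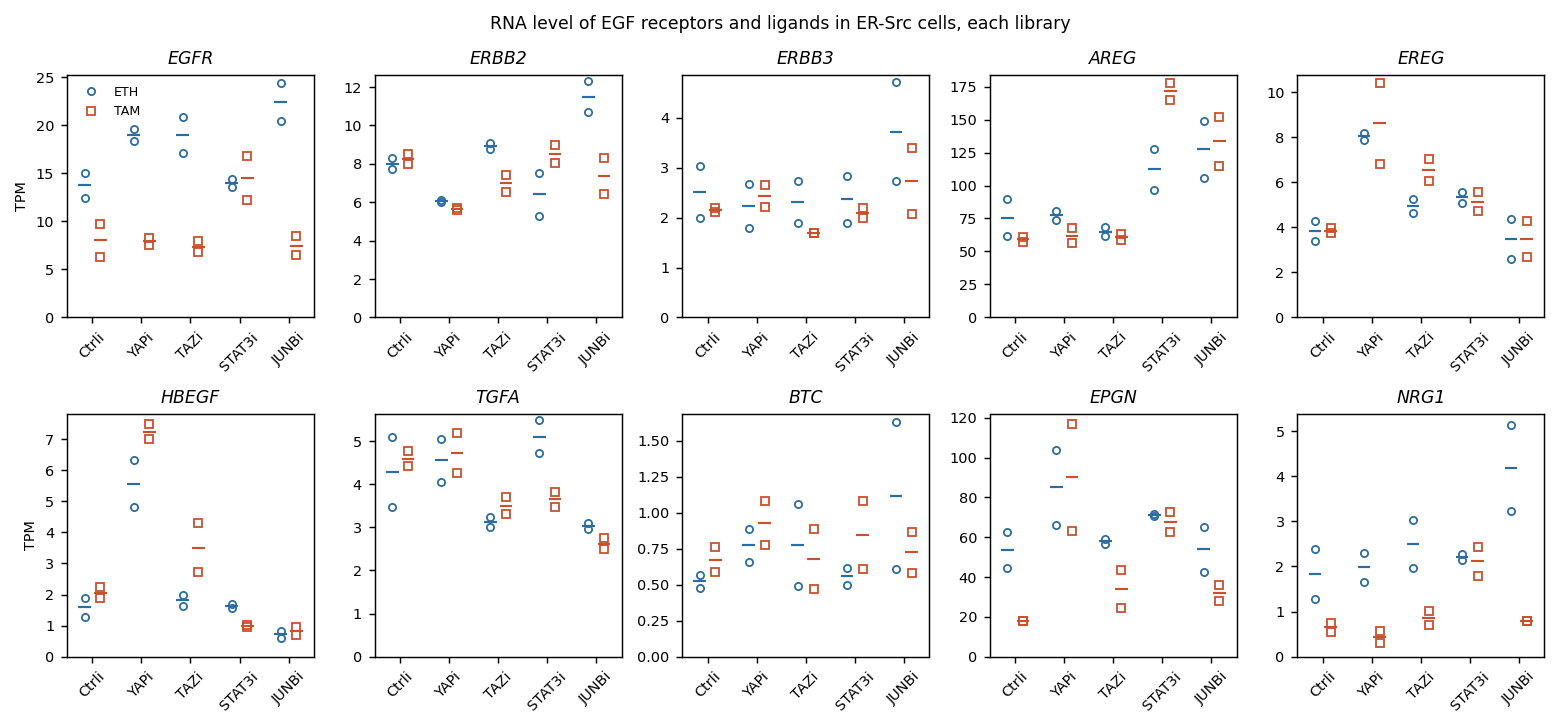
RNA level in TPM (vertical axis, from 0, a scale of its own for each gene) of the 10 genes in the 20 ER-Src libraries, by siRNA along the horizontal axis. Circles are ETH and squares TAM libraries and the short lines group means (n = 2); EPGN was at 17.9 and 18.1 TPM in the Ctrli TAM libraries, below every other library.

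TAM against ETH in Ctrli cells changed 1 of the 10 members, EPGN, which was lower, where 6.11% of all genes tested were called. The median log2 fold change of the members was -0.03, against -0.01 over all genes. Among the knockdowns in TAM, YAPi raised 3 members (EREG, HBEGF and EPGN) where 10.9% of genes were called, TAZi 2 (EREG and EPGN; 3.53%), STAT3i 2 (AREG and EPGN; 8.09%) and JUNBi 2 (AREG and EPGN; 6.71%). All 9 calls were increases, and each was of a ligand gene. Taken over the members, the median was 0.59 for YAPi, -0.06 for TAZi, 0.38 for STAT3i and -0.21 for JUNBi, against 0.03 or less over all genes. These 4 comparisons share the 2 Ctrli TAM libraries. Without Ctrli TAM replicate 1 there were 5 such calls, and without Ctrli TAM replicate 2 there were 4.

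In ETH the members called were EGFR, EREG and HBEGF in YAPi (11.4% of genes called), EGFR in TAZi (5.53%), none in STAT3i (0.201%) and NRG1 in JUNBi (2.76%). All 5 were higher than in Ctrli ETH. In STAT3i, 2 of the 10 members had an unadjusted p under 0.05. There edgeR's quasi-likelihood test called 0 of 14520 genes, and in JUNBi 1 of 14895. Because it called almost no gene, its lack of member calls in these 2 knockdowns says nothing about the members. Without Ctrli ETH replicate 1 the 5 calls became 3 and without Ctrli ETH replicate 2 they became 2, and edgeR made 3. Medians over the members were 0.61 (YAPi), 0.29 (TAZi), 0.11 (STAT3i) and 0.47 (JUNBi), against 0.02 or less over all genes.

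**Figure D2:**
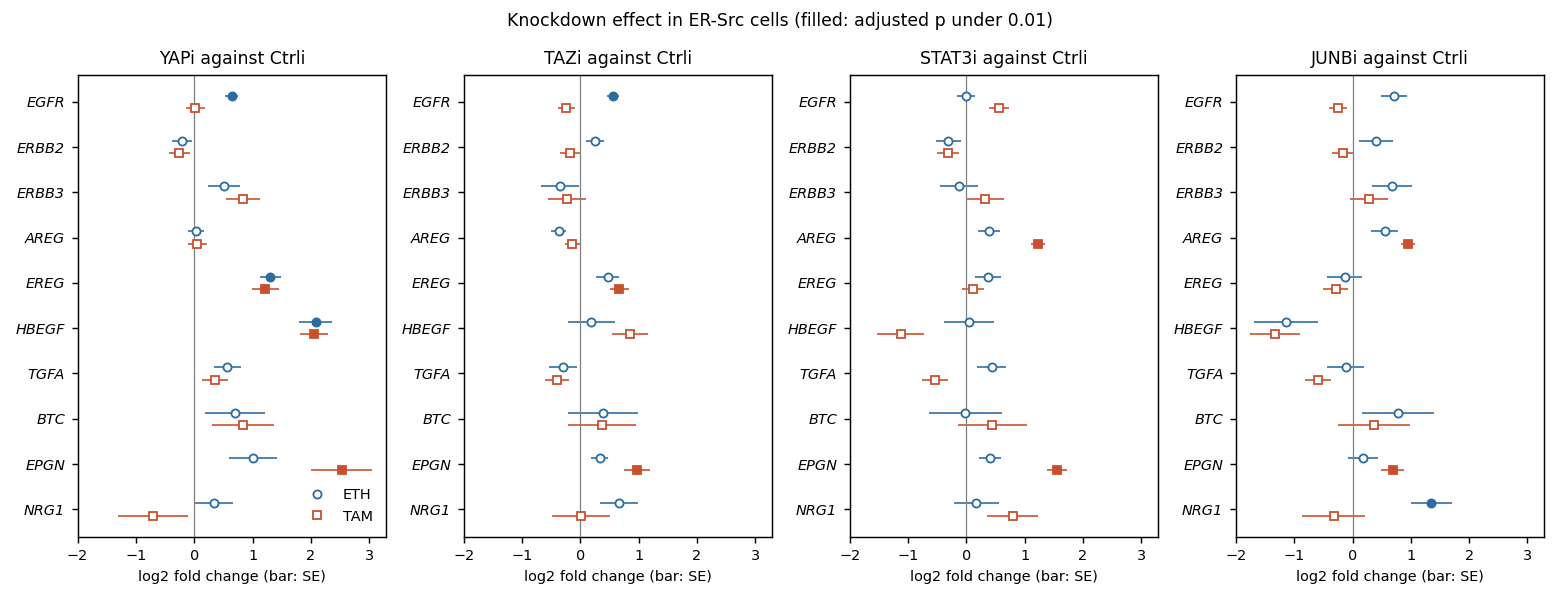
Log2 fold change of each member against Ctrli (horizontal axis; bars are SE) in ER-Src cells, 1 panel per siRNA, with circles for ETH and squares for TAM. Filled symbols had an adjusted p under 0.01; HBEGF stood at 2.08 in ETH and 2.06 in TAM in YAPi, and AREG was called in STAT3i and JUNBi in TAM.

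The response to TAM was then taken within each knockdown. YAPi changed 2 members (EGFR and NRG1, lower; 5.14% of genes called), TAZi 4 (EREG and HBEGF higher, EGFR and NRG1 lower; 8.04%), STAT3i 1 (AREG, higher; 1.52%) and JUNBi 2 (EGFR and NRG1, lower; 3.47%). With effective length offsets there were 5 member calls in place of these 9. The losses listed below for these calls do not name that setting. Whether a knockdown effect differed between TAM and ETH was tested as an interaction over the 4 groups concerned. For YAPi 0 of 10 members were called (0.496% of genes), for TAZi 1 of the 5 with an adjusted p (EGFR; 1.64%), for STAT3i 1 of 10 (EPGN; 1.57%) and for JUNBi 0 of 10 (0.287%). In YAPi and in JUNBi 2 members each had an unadjusted p under 0.05, and edgeR called 0 members in any of the 4 interactions.

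**Figure D3:**
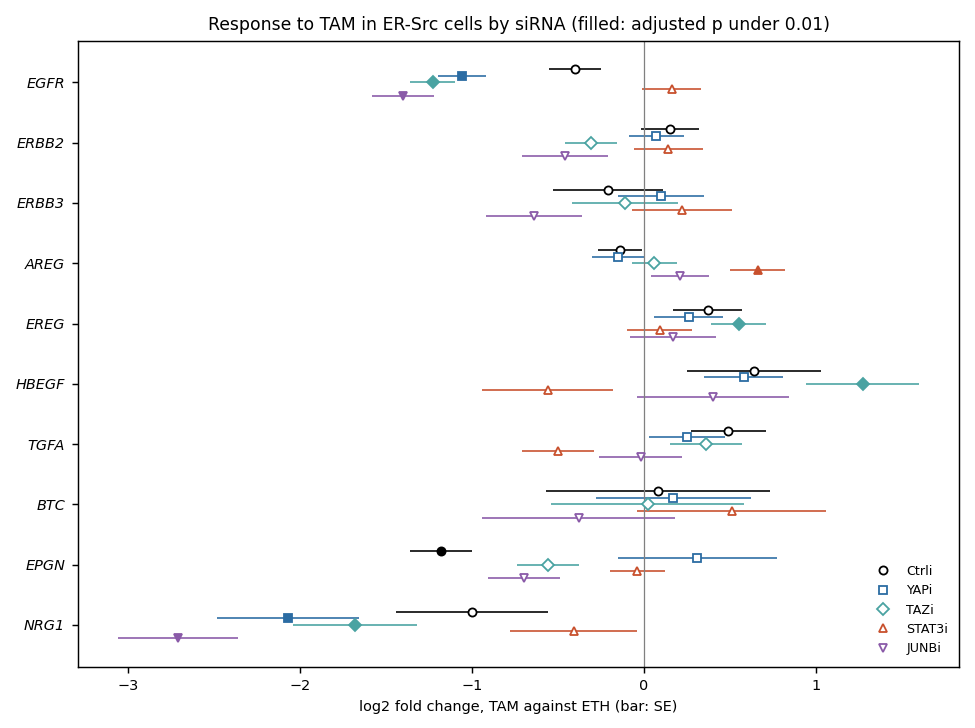
Log2 fold change of TAM against ETH for each member (horizontal axis; bars are SE), separately in Ctrli, YAPi, TAZi, STAT3i and JUNBi cells, with filled symbols for an adjusted p under 0.01. EGFR and NRG1 lay farthest to the left in YAPi, TAZi and JUNBi, EPGN was called in Ctrli at -1.18, and AREG was called in STAT3i at 0.66.

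EGFR, the receptor that all the ligands except NRG1 bind, was lower in TAM than in ETH in YAPi, TAZi and JUNBi cells, and higher under YAPi and TAZi in ETH. In Ctrli its libraries were at 15.1 and 12.4 TPM in ETH and at 9.73 and 6.31 TPM in TAM. These groups did not overlap, but the change of -0.40 (SE 0.15, adjusted p 0.07) missed the threshold. Without Ctrli TAM replicate 1 it was -0.65 with an adjusted p of 0.0044. YAPi libraries were at 19.6 and 18.4 TPM in ETH and at 7.53 and 8.32 TPM in TAM, a 2.09-fold fall (-1.06, SE 0.14, adjusted p 9e-13). TAZi libraries were at 17.1 and 20.9 against 6.82 and 7.96 TPM (-1.23, SE 0.13, adjusted p 9.2e-20). In JUNBi the values were 24.4 and 20.5 against 8.45 and 6.46 TPM (-1.40, SE 0.18, adjusted p 8.9e-13). The ETH libraries thus stood above the TAM libraries in each of these siRNAs, and all 3 calls held in every alternative. STAT3i differed in its values, 13.6 and 14.4 TPM in ETH and 12.2 and 16.8 TPM in TAM, which overlapped (0.16, SE 0.17, adjusted p 1.0).

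Against Ctrli in ETH, EGFR rose after YAPi, with a log2 fold change of 0.64 (SE 0.11, adjusted p 1.3e-07), and after TAZi, with 0.56 (SE 0.11, adjusted p 2.4e-05). No library of either overlapped the Ctrli ETH libraries. The YAPi call was lost without Ctrli ETH replicate 2 (adjusted p 0.023). The TAZi call was lost under edgeR (0.01), without Ctrli ETH replicate 1 (0.046) or 2 (0.084) and without TAZi ETH replicate 2 (0.046). JUNBi ETH gave the highest EGFR level of any ER-Src group, 22.5 ± 2.79 TPM (SD, n = 2), but 0.71 (SE 0.22, adjusted p 0.026) was not called. Without JUNBi ETH replicate 1 the adjusted p was 6.8e-05, without replicate 2 it was 2.3e-06. In TAM, the knockdowns of YAP, TAZ and JUNB left EGFR without a call and overlapping Ctrli TAM (0.02, -0.24 and -0.25, SE 0.15 to 0.17), and STAT3i was at 0.56 (SE 0.17, adjusted p 0.011). That value was called with TMM size factors (0.0049), without Ctrli TAM replicate 1 (0.0078) and without STAT3i TAM replicate 1 (0.0082). The effect of TAZi on EGFR was lower in TAM than in ETH (interaction -0.82, SE 0.18, adjusted p 0.00077), a difference that edgeR did not call (adjusted p 0.12). It was also lost without Ctrli ETH replicate 1 (0.056) or 2 (0.03), Ctrli TAM replicate 1 (0.055), TAZi TAM replicate 1 (0.086) or 2 (0.04) and TAZi ETH replicate 2 (0.17). The same difference was -0.64 for YAPi (adjusted p 0.1), -0.98 for JUNBi (0.029) and 0.56 for STAT3i (0.45). Without Ctrli TAM replicate 2 it was called for YAPi (-0.83, adjusted p 0.0057) and for JUNBi (-1.17, 0.0099), and without JUNBi ETH replicate 1 or 2 it was called for JUNBi (0.0018 and 0.0008).

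In order of mean TPM, EGFR stood highest in JUNBi ETH (22.5), whose libraries lay above those of YAPi ETH (19.0) but overlapped TAZi ETH (19.0). STAT3i TAM (14.5), STAT3i ETH (14.0) and Ctrli ETH (13.8) overlapped in turn and lay apart from the other 4 TAM groups, which ran from 8.02 in Ctrli to 7.39 in TAZi and overlapped each other. The TAM and ETH libraries of STAT3i thus overlapped for this gene, and those of the other 4 siRNA treatments did not.

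ERBB2, the partner receptor without a ligand, was not called in any comparison of either line, although JUNBi in TAM against ETH (-0.46, SE 0.25) reached -0.76 with an adjusted p of 0.0035 without JUNBi ETH replicate 1, and YAPi_TAZi in set 1 (-0.36, SE 0.16) was called with TMM size factors (-0.47, 0.0057). Its ER-Src libraries ran from 5.29 TPM (STAT3i ETH replicate 1) to 12.3 TPM (JUNBi ETH replicate 2), with Ctrli at 8.28 and 7.73 TPM in ETH and 8.51 and 7.97 TPM in TAM. YAPi libraries were lower than Ctrli in TPM (6.12 and 6 in ETH, 5.72 and 5.62 in TAM) without overlap, but the fold changes were -0.21 (SE 0.17) and -0.26 (SE 0.18). ERBB2 shares bases with MIEN1 and PGAP3 on the opposite strand, whose counts came to 56.1% and 15.6% of its own, and the strand setting of the counting is not given, so its level is uncertain. ERBB3, the receptor for NRG1, ran from 1.7 to 4.71 TPM in ER-Src and was not called either. The nearest to a call was YAPi in TAM, at 2.65 and 2.21 TPM against 2.12 and 2.2 TPM in Ctrli (0.84, SE 0.29, adjusted p 0.03). Its counts are uncertain too, since an overlapping protein-coding gene on the same strand (ENSG00000257411) carried 43.2% as many counts.

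EPGN, an EGFR ligand of low affinity, was the member called under the most siRNAs in TAM. In Ctrli its libraries fell from 62.4 and 44.8 TPM in ETH to 17.9 and 18.1 TPM in TAM (2.26-fold lower, -1.18, SE 0.18, adjusted p 1.7e-09), a call that no alternative removed. In TAM each of the 4 knockdowns was higher than Ctrli, with no overlap. STAT3i stood at 72.8 and 62.6 TPM (1.55, SE 0.17, adjusted p 3.1e-18), and this call held in every alternative. YAPi was at 63 and 117 TPM (2.53, SE 0.52, adjusted p 2.3e-05), a 5.78-fold increase whose libraries differed widely. Without Ctrli TAM replicate 1 or 2 the YAPi change was 2.55 or 2.54 with adjusted p of 0.072 and 0.073.

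TAZi was at 24.7 and 43.4 TPM (0.97, SE 0.22, adjusted p 0.00082) and JUNBi at 36 and 27.9 TPM (0.69, SE 0.20, adjusted p 0.0064) for EPGN in TAM. Both values were nearer to Ctrli than those of STAT3i and YAPi, and both calls were lost in 7 of 10 alternatives. For TAZi the adjusted p was 0.034 with edgeR, 0.039 without Ctrli TAM replicate 1, 0.62 without Ctrli TAM replicate 2 and 0.82 without TAZi TAM replicate 2. For JUNBi it was 0.23 and 0.17 without Ctrli TAM replicate 1 or 2 and 0.6 and 0.048 without JUNBi TAM replicate 1 or 2. In ETH, EPGN was not called under any siRNA: YAPi was at 66.3 and 104 TPM (1.01, SE 0.41, adjusted p 0.068), which was called without YAPi ETH replicate 1 (1.35, 4.4e-11), and TAZi, STAT3i and JUNBi had values of 0.33, 0.40 and 0.18.

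Within STAT3i cells EPGN was 71.8 and 70.7 TPM in ETH and 72.8 and 62.6 TPM in TAM, a log2 fold change of -0.04 (SE 0.16, adjusted p 1.0) where Ctrli gave -1.18. The difference, the interaction of STAT3i with TAM, was 1.14 (SE 0.23, adjusted p 0.00011). All 8 fits that left out 1 of the libraries kept this call, whereas edgeR gave an adjusted p of 0.015 and the fit over all groups 0.18. The interaction was larger but less precise for YAPi (1.5, SE 0.66, adjusted p 0.69), where leaving out YAPi TAM replicate 1 gave 1.95 with an adjusted p of 3.1e-05. For TAZi and JUNBi it was 0.62 (0.17) and 0.49 (1.0). Within these knockdowns the TAM values were -0.56 in TAZi (SE 0.18, adjusted p 0.023) and -0.70 in JUNBi (SE 0.21, adjusted p 0.022). They were called without TAZi TAM replicate 2 (-0.92, adjusted p 5.5e-05) and without JUNBi ETH replicate 2 (-0.89, 0.00031). In order, the YAPi groups were highest (89.8 ± 38.0 TPM in TAM and 85.1 ± 26.7 TPM in ETH) and overlapped the STAT3i groups, and Ctrli TAM was lowest at 18.0 ± 0.106 TPM.

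AREG, the ligand with the highest RNA level in these cells, was raised by STAT3i and by JUNBi in TAM. JUNB RNA itself was lower in STAT3i TAM too (-2.41, SE 0.16), and its part in the STAT3i value was not tested. Ctrli TAM libraries were at 57.4 and 61.1 TPM, against 178 and 165 TPM in STAT3i (2.33-fold higher, 1.22, SE 0.12, adjusted p 1.7e-20). JUNBi TAM libraries were at 152 and 115 TPM (1.93-fold higher, 0.95, SE 0.12, adjusted p 3.4e-12). Neither group overlapped Ctrli TAM, and both calls held in every alternative. In YAPi (56.5 and 67.6 TPM) and TAZi (63.3 and 58.5 TPM) the AREG libraries overlapped Ctrli TAM, with changes of 0.05 (SE 0.16) and -0.14 (SE 0.13). The siRNAs that raised AREG are also those whose libraries had the 49.0-base length gap, and offsets from the effective lengths kept both calls.

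In ETH no siRNA gave an AREG call. Ctrli was at 89.4 and 61.9 TPM, STAT3i at 96.9 and 128 TPM (0.39, SE 0.19, adjusted p 1.0) and JUNBi at 149 and 106 TPM (0.55, SE 0.23, adjusted p 0.2). Without JUNBi ETH replicate 2 the JUNBi value was 0.65 with an adjusted p of 0.001. The difference between the STAT3i effect in TAM and in ETH was 0.81 (SE 0.22, adjusted p 0.016), not called, but called with TMM size factors (0.0069) and without STAT3i ETH replicate 2 (0.98, 0.00011). TAM raised AREG within STAT3i cells by 0.66 (SE 0.16, adjusted p 0.0018). That call was lost with edgeR (0.078), without STAT3i TAM replicate 1 (0.21) or 2 (0.036) and without STAT3i ETH replicate 1 (0.018). In Ctrli the TAM value was -0.14 (SE 0.13). In the order of groups, STAT3i TAM lay apart at the top (172 ± 9.12 TPM), and the 6 groups of Ctrli, YAPi and TAZi lay apart at the bottom (59.3 to 77.4 TPM) and were overlapping neighbours.

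EREG, a close relative of AREG and its neighbour on chromosome 4, was raised by YAPi in both treatments. In ETH its libraries were at 4.3 and 3.38 TPM with the control siRNA, against 7.89 and 8.19 TPM with YAPi (2.46-fold higher, 1.30, SE 0.18, adjusted p 1.6e-11), and this call held in every alternative. In TAM they were at 3.76 and 3.96 TPM in Ctrli and 6.83 and 10.4 TPM in YAPi (1.22, SE 0.23, adjusted p 2.6e-06). The YAPi libraries were above all Ctrli libraries, but the TAM call was lost with edgeR (0.011), without Ctrli TAM replicate 1 (0.32) or 2 (0.33) and without YAPi TAM replicate 2 (0.82, adjusted p 0.051). TAZi TAM libraries, at 6.07 and 7.05 TPM, were above Ctrli TAM by 0.67 (SE 0.16, adjusted p 0.0013). This call was lost when the replicate number was blocked (adjusted p 0.072). That call was lost in each of the 4 fits without a library, with adjusted p of 0.11 and 0.086 without Ctrli TAM replicate 1 or 2 and 0.16 and 0.54 without TAZi TAM replicate 1 or 2. Within TAZi cells, TAM raised EREG by 0.55 (SE 0.16, adjusted p 0.0096) from 4.64 and 5.28 TPM in ETH. Without TAZi ETH replicate 1 or 2 the adjusted p was 0.12 and 0.026, without TAZi TAM replicate 1 or 2 it was 0.066 and 0.17, and without Ctrli TAM replicate 1 or 2 it was 0.016 and 0.012. STAT3i and JUNBi gave no call for EREG in either treatment (-0.29 to 0.37).

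HBEGF, the heparin-binding ligand, had the largest fold change of the 10 members in YAPi in ETH. Its libraries were at 1.89 and 1.28 TPM in Ctrli ETH and 4.81 and 6.32 TPM in YAPi ETH (4.24-fold higher, 2.08, SE 0.29, adjusted p 4.5e-11). In TAM they were at 2.25 and 1.88 TPM in Ctrli and 6.99 and 7.47 TPM in YAPi (4.17-fold higher, 2.06, SE 0.24, adjusted p 4.7e-15). All 4 YAPi libraries lay above all Ctrli libraries, both calls held in every alternative, and the effects in TAM and ETH differed by -0.04 (SE 0.36). TAZi was at 2.72 and 4.3 TPM in TAM (0.85, SE 0.31, adjusted p 0.084) and at 1.64 and 1.99 TPM in ETH (0.19, SE 0.41). Within TAZi cells TAM raised HBEGF by 1.27 (SE 0.33, adjusted p 0.0019), which was lost without TAZi TAM replicate 2 (0.16) or TAZi ETH replicate 1 (0.059).

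STAT3i and JUNBi stood on the other side of Ctrli for HBEGF in TAM. STAT3i TAM libraries were at 0.95 and 1.01 TPM (-1.13, SE 0.40, adjusted p 0.039) and JUNBi TAM libraries at 0.97 and 0.71 TPM (-1.33, SE 0.43, adjusted p 0.021), neither of which overlapped Ctrli TAM. Both missed the threshold and were called with edgeR (adjusted p 0.0055 and 0.0048) and with 1 fit over all ER-Src groups (0.0015 and 0.00021). In ETH, JUNBi libraries were at 0.83 and 0.61 TPM (-1.14, SE 0.55, adjusted p 0.31), below those of Ctrli, and STAT3i libraries at 1.58 and 1.69 TPM overlapped Ctrli (0.05, SE 0.43). HBEGF counts ran from 37 to 750 per library, so these values rest on few reads.

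TGFA, an EGFR ligand with a high affinity, had no call in ER-Src. Its libraries ran from 2.49 TPM (JUNBi TAM replicate 2) to 5.48 TPM (STAT3i ETH replicate 1). In TAM, STAT3i (3.48 and 3.81 TPM) and JUNBi (2.75 and 2.49 TPM) lay below Ctrli (4.41 and 4.77 TPM), with changes of -0.54 (SE 0.22, adjusted p 0.089) and -0.59 (SE 0.22, adjusted p 0.064). The JUNBi value was -0.99 with an adjusted p of 0.0016 with offsets from the effective lengths. BTC ranged from 0.47 to 1.63 TPM, with SE of 0.45 to 0.83 on its ER-Src changes, and was not called.

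NRG1, the ligand of ERBB3 (chromosome 8, 31639222 to 32855666, plus strand), was low and fell in TAM in YAPi, TAZi and JUNBi cells. JUNBi libraries were at 5.14 and 3.24 TPM in ETH and 0.79 and 0.8 TPM in TAM (6.56-fold lower, -2.71, SE 0.35, adjusted p 2.8e-12), a call that held in every alternative. YAPi libraries were at 2.3 and 1.66 TPM in ETH and 0.31 and 0.57 TPM in TAM (-2.07, SE 0.41, adjusted p 1.6e-05). TAZi libraries were at 1.96 and 3.02 TPM in ETH and 1.01 and 0.71 TPM in TAM (-1.68, SE 0.36, adjusted p 7.1e-05). The ETH libraries lay above the TAM libraries in all of these. With effective length offsets the 9 member calls of TAM within knockdowns became 5, and the losses named next leave that setting out. The YAPi call was lost without YAPi ETH replicate 1 (0.025) and the TAZi call without TAZi ETH replicate 2 (0.015). Ctrli went from 2.38 and 1.28 TPM to 0.56 and 0.75 TPM, which did not overlap but gave -1.0 (SE 0.44, adjusted p 0.19). STAT3i went from 2.27 and 2.15 TPM to 1.8 and 2.44 TPM (-0.41, SE 0.37, adjusted p 1.0), which overlapped. No interaction was called for NRG1 (JUNBi -1.70, SE 0.52, adjusted p 0.14), so the knockdowns are not shown to differ from Ctrli in this response.

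Against Ctrli ETH, NRG1 was higher in JUNBi ETH (1.35, SE 0.35, adjusted p 0.0059). It was not called there when the replicate number was blocked. The call was lost with edgeR (0.074), without Ctrli ETH replicate 1 (0.37) or 2 (0.9) and without JUNBi ETH replicate 1 (0.026). JUNBi ETH is the group in which the libraries were farthest apart and in which JUNB itself missed the threshold. NRG1 counts ran from 20 to 321 per ER-Src library.

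Several ligand RNAs stood at other levels in the MDA-MB-231 set 1 controls than in ER-Src, while AREG lay within its ER-Src range. In the set 1 controls HBEGF was at 87.1 and 89.1 TPM, AREG at 76.8 and 92.5 TPM, NRG1 at 60.2 and 61.2 TPM, TGFA at 23.9 and 24.4 TPM and EREG at 10.9 and 11.4 TPM. EPGN had 0 counts in both, which allows up to 0.223 CPM (3 counts over the library total), and 0 counts in all 6 set 2 libraries (up to 0.166 to 0.411 CPM). HBEGF and NRG1 thus had a higher TPM in these controls than in ER-Src (0.61 to 7.47 and 0.31 to 5.14 TPM), and EPGN was the reverse. RNAs without poly(A) took 11.5% to 14.4% of counts in ER-Src, so cell line and library type cannot be told apart here. In the set 1 knockdowns, where that share was 11.9% to 14.8%, HBEGF was at 6.73 to 32.3 TPM and NRG1 at 5.37 to 31.7 TPM. EGFR was at 36.2 and 34.9 TPM and ERBB2 at 28.4 and 25.3 TPM, while ERBB3 was at 1.98 and 5.16 TPM. The limits given for 0 counts cover counting error only.

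The controls of set 1 and set 2 had different levels of these genes. Set 2 controls were at 4.34 and 2.67 TPM for EGFR, 12 and 8.28 TPM for AREG, 28.6 and 19.7 TPM for HBEGF, 22.5 and 10.8 TPM for NRG1, 5.85 and 3.06 TPM for TGFA and 1.07 and 0.93 TPM for EREG. Each of these 6 genes was lower in both set 2 controls than in both set 1 controls. No test was made across the sets, and the part of the set in these levels was not tested.

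**Figure D4:**
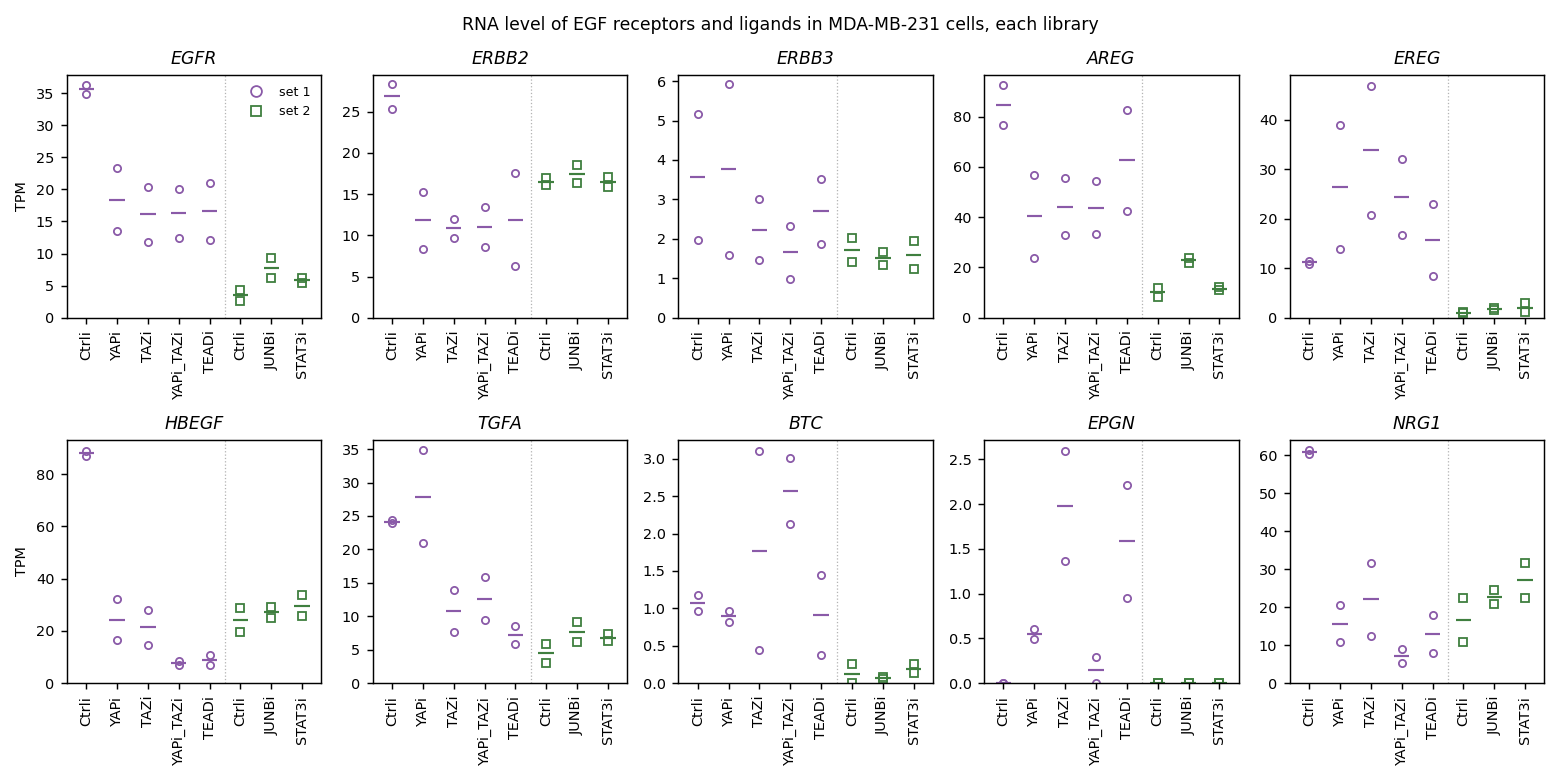
RNA level in TPM (vertical axis, from 0, a scale of its own for each gene) of the 10 genes in the 16 MDA-MB-231 libraries, with set 1 left and set 2 right of the dotted line. Points are libraries and short lines group means (n = 2); EGFR was at 34.9 TPM or more in the set 1 controls and at 4.34 TPM or less in the set 2 controls.

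Against the set 1 controls the numbers of members called were 4 of 9 in YAPi (24.0% of all genes called), 2 of 10 in TAZi (32.3%), 4 of 9 in YAPi_TAZi (35.5%) and 4 of 10 in TEADi (28.1%). The share of members was below that of all genes in TAZi and above it in the other 3, and knockdown and library type cannot be told apart in any of them. Without Ctrli replicate 1 or 2 the 14 calls became 7 and 8, and the count was 6 when the set 2 controls were added. The same knockdowns were therefore also compared with each other, each against the mean of the other 3. Their libraries are alike in the share of RNAs without poly(A) but differ in length gap by replicate number. There YAPi changed 2 of 7 members (6.32% of genes called), TAZi 3 of 7 (6.25%), YAPi_TAZi 1 of 8 (6.07%) and TEADi 3 of 7 (7.79%). These contrasts come from the same fit and depend on each other, since a low level in some knockdowns raises the values of the others. Replicate 1 and replicate 2 of these knockdowns had length gaps of 48.0 and 74.6 bases, and below the values are given in the order of replicate 1 and replicate 2. For YAPi_TAZi against controls the dispersion was taken from a local regression, since the default trend could not be fitted. With the same limit on library type, YAP1 was at -2.63 in YAPi and -2.65 in YAPi_TAZi. WWTR1 was at -4.9 in TAZi and -3.7 in YAPi_TAZi, but also lower in YAPi (-1.14) and TEADi (-0.89). TEADi gave -0.82, -4.3, -1.62 and -6.34 for TEAD1 to TEAD4. TEAD3 and TEAD4 were also lower in YAPi (-1.53 and -1.38), TAZi (-1.32 and -1.36) and YAPi_TAZi (-1.24 and -2.05).

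EREG was higher than in the set 1 controls in all 4 knockdowns. From 10.9 and 11.4 TPM in the controls it stood at 13.8 and 38.9 TPM after YAPi, 20.8 and 46.8 TPM after TAZi, 16.7 and 32 TPM after YAPi_TAZi and 8.37 and 23 TPM after TEADi. In the same order the log2 fold changes were 2.57 (SE 0.21), 3.05 (SE 0.15), 2.53 (SE 0.15) and 1.97 (SE 0.26), with adjusted p of 2.2e-32, 6.8e-92, 1.1e-60 and 4.6e-13. All 4 calls held in every alternative, although the TEADi libraries overlapped the controls in TPM, where the median gene changed by -1.38 in log2 TPM. Among the knockdowns EREG was highest in TAZi (0.70, SE 0.17, adjusted p 0.0012) and lowest in TEADi (-0.73, SE 0.18, adjusted p 0.00093). The TAZi value was lost with edgeR (0.033), without TAZi replicate 1 (0.068) or 2 (0.41) and without TEADi replicate 1 (0.025). The TEADi value was lost with edgeR (0.034), without TAZi replicate 2 (0.036) and without TEADi replicate 1 (-0.46, 0.41). EREG was thus higher after YAPi in both lines, in set 1 with the limit on library type. Every alternative against these controls kept that limit, and EREG in YAPi was not called against the other knockdowns.

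HBEGF, the ligand with the highest mean TPM in the set 1 controls, was called lower in all 4 knockdowns. Its control libraries overlapped those of AREG. With the controls of both sets only YAPi_TAZi kept the call, so the calls in YAPi, TAZi and TEADi rested on the set 1 controls. HBEGF fell from 87.1 and 89.1 TPM to 7 and 8.6 TPM in YAPi_TAZi (4.68-fold lower in normalized counts, -2.23, SE 0.17, adjusted p 4.4e-36). In TEADi it was at 6.73 and 10.6 TPM (-1.83, SE 0.20, adjusted p 8.8e-18). YAPi libraries, at 16.3 and 32.3 TPM, gave -0.50 (SE 0.17, adjusted p 0.0094), while TAZi libraries, at 14.6 and 28.1 TPM, gave -0.70 (SE 0.11, adjusted p 5.6e-09). The YAPi_TAZi call held in every alternative and the TEADi call was lost with the controls of both sets (-1.45, adjusted p 0.012). With those controls YAPi was at -0.12 (adjusted p 0.86) and TAZi at -0.32 (0.64). Without Ctrli replicate 1 or 2 the adjusted p was 0.24 and 0.34 in YAPi and 0.056 and 0.088 in TAZi, and without YAPi replicate 2 it was 0.051 in YAPi. Relative to the mean of the other knockdowns, HBEGF stood at 1.06 in YAPi (SE 0.19, adjusted p 1.2e-06) and at 0.84 in TAZi (SE 0.19, adjusted p 0.00032). It was lower in YAPi_TAZi (-1.21, SE 0.22, adjusted p 4.6e-06). The YAPi value held in every alternative, the YAPi_TAZi value was lost without YAPi_TAZi replicate 2 (0.011), and the TAZi value without TAZi replicate 1 (0.29) or 2 (0.26) or TEADi replicate 1 (0.028). TEADi was at -0.68 (SE 0.21, adjusted p 0.014, or 0.0027 when the replicate number was blocked). No test was made against ER-Src, where HBEGF rose by 2.08 and 2.06 after YAPi.

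**Figure D5:**
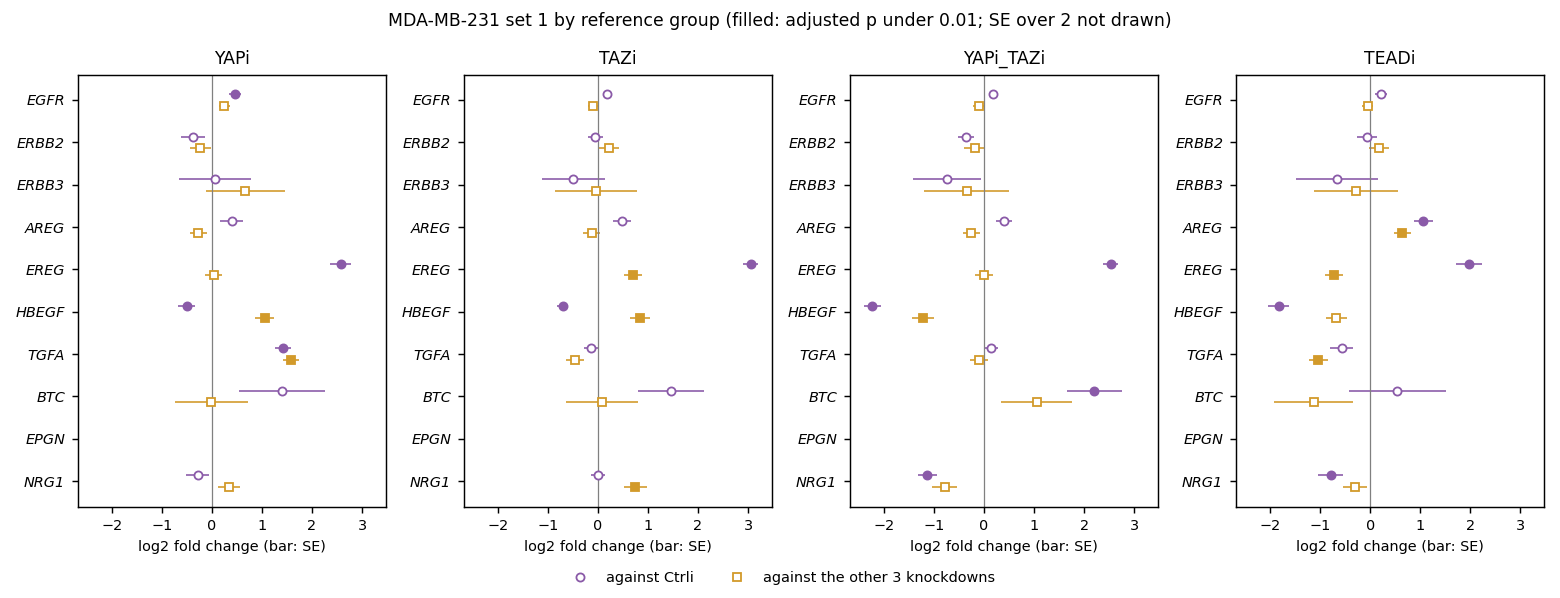
Log2 fold change (horizontal axis; bars are SE) of each member in 4 MDA-MB-231 set 1 knockdowns, against the set 1 Ctrli libraries (circles) and against the mean of the other 3 knockdowns (squares). Filled symbols had an adjusted p under 0.01; EREG stood between 1.97 and 3.05 against Ctrli but between -0.73 and 0.70 among the knockdowns, and EPGN is not drawn because its SE exceeded 2.

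Of the set 1 knockdowns, TGFA was called higher in YAPi and in no other. Its libraries were at 23.9 and 24.4 TPM in Ctrli, 21 and 34.8 TPM in YAPi, 7.58 and 13.9 TPM in TAZi, 9.39 and 15.8 TPM in YAPi_TAZi and 5.85 and 8.53 TPM in TEADi. Against Ctrli the YAPi change was 1.42 (SE 0.16, adjusted p 3.9e-18) and against the other knockdowns 1.59 (3.02-fold, SE 0.16, adjusted p 1.3e-19), and both held in every alternative. Within each replicate number the YAPi library was the highest and the TEADi library the lowest of the knockdowns. TEADi was at -1.04 (SE 0.19, adjusted p 2.5e-06) against the others, lost without TEADi replicate 1 (0.012) or 2 (0.013). YAPi_TAZi, which also depletes YAP, was at -0.10 (SE 0.18) against the others.

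AREG was higher in TEADi than in the set 1 controls (1.06, SE 0.19, adjusted p 4.4e-07), at 42.4 and 82.7 TPM against 76.8 and 92.5 TPM, where the median gene changed by -1.38 in log2 TPM. Without Ctrli replicate 1 the adjusted p was 0.02, and with the controls of both sets the value was 1.8 with an adjusted p of 0.048. Among the knockdowns AREG in TEADi was at 0.64 (SE 0.17, adjusted p 0.0022), a call lost in 10 of 14 alternatives, such as without TEADi replicate 1 (0.17) or 2 (0.2), TAZi replicate 1 (0.059) or 2 (0.095), YAPi replicate 1 (0.012) and YAPi_TAZi replicate 1 (0.011) or 2 (0.011). The other knockdowns were at 23.9 and 56.7 TPM (YAPi), 32.7 and 55.4 TPM (TAZi) and 33.4 and 54.2 TPM (YAPi_TAZi), with values of 0.39 to 0.49 against controls that were not called, although edgeR called TAZi (0.54, adjusted p 0.0091). AREG was therefore called lower in no YAPi or TAZi comparison of either line.

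NRG1 was lower than in the set 1 controls in YAPi_TAZi, at 5.37 and 8.9 TPM (-1.13, SE 0.19, adjusted p 1.3e-08), and in TEADi, at 8.02 and 17.9 TPM (-0.79, SE 0.25, adjusted p 0.0053). The YAPi_TAZi call was lost without Ctrli replicate 1 (0.078) or 2 (0.1), and the TEADi call without Ctrli replicate 1 (0.22) or 2 (0.27) and without TEADi replicate 2 (0.011). With the controls of both sets both calls were lost, at -0.59 in YAPi_TAZi (adjusted p 0.49) and -0.24 in TEADi (0.8). YAPi (10.7 and 20.4 TPM) and TAZi (12.3 and 31.7 TPM) had changes of -0.28 (SE 0.23) and 0.00 (SE 0.14). Among the knockdowns NRG1 was higher in TAZi (0.75, SE 0.22, adjusted p 0.0088). This value lost its call in each of the 8 fits without a library (adjusted p 0.031 to 0.6) and with TMM size factors (0.076). YAPi_TAZi was at -0.78 (SE 0.25, adjusted p 0.022, or 0.0059 when the replicate number was blocked).

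EGFR was called in set 1 in YAPi (0.46, SE 0.12, adjusted p 0.00045), although its TPM was lower, at 13.5 and 23.3 against 36.2 and 34.9. Its log2 TPM ratio was -0.95 where the median gene was at -1.40. Without Ctrli replicate 1 or 2 or YAPi replicate 2 the adjusted p was 0.15, 0.2 and 0.02, and with the controls of both sets the value was 1.26 with an adjusted p of 0.21. TAZi, YAPi_TAZi and TEADi were at 0.18, 0.18 and 0.22 (SE 0.07 to 0.12), and no EGFR change was called among the knockdowns (-0.11 to 0.25). BTC was called in YAPi_TAZi (2.20, SE 0.55, adjusted p 0.00021) on 7 and 23 counts, against 24 and 30 counts in the deeper controls. That call was lost without Ctrli replicate 1 (0.27) or 2 (0.19), without YAPi_TAZi replicate 2 (1.38, 0.44), with the controls of both sets (0.046) and with 1 mean dispersion for all genes (0.011). EPGN had 0 to 2 counts in each set 1 knockdown library. KRT5, at 0 TPM in the set 1 controls, reached up to 11.5 TPM in these libraries and ESR1 up to 2.57 TPM, and the part of such reads in the EPGN counts was not tested.

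In set 2 no member was called, in JUNBi (3.99% of genes called, 6 members with an adjusted p) or in STAT3i (0.237%, 3 members). In JUNBi 2 members had an unadjusted p under 0.05 and in STAT3i 0. Over all genes edgeR called 0 of 13606 in JUNBi and 0 of 13510 in STAT3i. Its lack of member calls therefore says nothing about the members. JUNB fell in its knockdown (-2.04, SE 0.31, adjusted p 2.1e-08), and STAT3 was at -2.41 in STAT3i (SE 0.32), for which the filter on low counts in DESeq2 gave no adjusted p. AREG was at 21.9 and 23.8 TPM in JUNBi against 12 and 8.28 TPM in Ctrli, which did not overlap (0.90, SE 0.35, adjusted p 0.076). EGFR was at 6.2 and 9.28 TPM in JUNBi, 5.4 and 6.25 TPM in STAT3i and 4.34 and 2.67 TPM in Ctrli (0.66, SE 0.27, adjusted p 0.099 and 0.49, SE 0.27, adjusted p 0.53). AREG in STAT3i (12.1 and 10.9 TPM) overlapped Ctrli (0.04, SE 0.42). EREG, at 1.07 and 0.93 TPM in Ctrli, was at 1.53 and 1.91 TPM in JUNBi and 2.97 and 1.15 TPM in STAT3i, above Ctrli without overlap, but DESeq2 gave it no adjusted p (0.48, SE 0.55 and 0.91, SE 0.62). TGFA also lay above Ctrli (5.85 and 3.06 TPM) in JUNBi (6.18 and 9.09 TPM; 0.59, SE 0.33, adjusted p 0.27) and in STAT3i (6.25 and 7.37 TPM; 0.50, SE 0.34). HBEGF, NRG1, ERBB2 and ERBB3 overlapped Ctrli in both knockdowns, with values of -0.19 to 0.41, and BTC did not exceed 0.25 TPM.

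The other genes of the pathway were taken from a list of 31: further family members, proteases and iRhoms of ligand shedding, receptor inhibitors, adaptors and the RAS to MAP kinase cascade. TAM in Ctrli raised 2 and lowered 0 of the 29 with an adjusted p, where 6.11% of all genes were called. Of these, GAB1, a docking adaptor, rose by 1.45 (SE 0.3, adjusted p 3.2e-05). GAB1 also rose in TAM within YAPi cells (1.08, SE 0.25, adjusted p 0.00048), and within TAZi cells its change was 1.26 (SE 0.27, adjusted p 6.8e-05). In TAM the numbers higher and lower were 1 and 1 of 28 in YAPi (10.9% of all genes called), 0 and 1 of 27 in TAZi (3.53%), 1 and 2 of 28 in STAT3i (8.09%) and 1 and 2 of 27 in JUNBi (6.71%). ERRFI1, an inhibitor of the EGFR kinase, was the gene that rose in YAPi (0.60, SE 0.16), STAT3i (0.87, SE 0.17) and JUNBi (0.84, SE 0.16), with adjusted p of 0.0019, 5.4e-06 and 6.7e-06. RHBDF2, an iRhom that carries ADAM17 to the surface, fell by 1.40 in STAT3i (SE 0.34, adjusted p 0.00081) and by 1.29 in JUNBi (SE 0.35, adjusted p 0.0046). ADAM10, a sheddase, fell in YAPi in TAM (-0.53, SE 0.14, adjusted p 0.0025) and ETH (-0.52, SE 0.14, adjusted p 0.0022), and the kinase gene MAP2K1 fell in TAZi in both (-0.52 and -0.64, SE 0.14, adjusted p 0.0065 and 0.00018).

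In ETH the pathway counts were 1 higher and 1 lower of 29 in YAPi (11.4% of all genes called) and 0 and 1 of 28 in TAZi (5.53%). SHC1, an adaptor, was the gene that rose in YAPi (0.40, SE 0.11, adjusted p 0.0041). In STAT3i (0.201%) and JUNBi (2.76%) 0 of 29 were called, and 0 and 2 of the 31 genes had an unadjusted p under 0.05. There edgeR called 0 pathway genes, and over all genes it called 0 in STAT3i and 1 in JUNBi. In the interactions, SHC1 in STAT3i (-0.91, SE 0.19, adjusted p 0.00029) was the gene called, and ERRFI1 rose in TAM within STAT3i (0.98, SE 0.17, adjusted p 1e-06). Against the set 1 controls YAPi had 6 higher and 6 lower, TAZi 9 and 7, YAPi_TAZi 10 and 8 and TEADi 8 and 4 of the 29 with an adjusted p, where 24.0%, 32.3%, 35.5% and 28.1% of all genes were called, again not to be told apart from library type. CBLB, a ubiquitin ligase of the receptors, was the gene that rose most there (1.54 to 2.29), and ERRFI1 fell most in YAPi, YAPi_TAZi and TEADi (-1.62, -1.57 and -1.49). Among the set 1 knockdowns YAPi had 0 higher and 2 lower of 25 (6.32% of all genes called) and TAZi 1 and 1 of 27 (6.25%). YAPi_TAZi had 2 and 1 of 27 (6.07%) and TEADi 4 and 1 of 27 (7.79%). NRAS, a RAS gene, was at -0.98 after YAPi, 1.09 after TAZi and -1.06 after YAPi_TAZi, and RHBDF1 at 1.33 and LRIG1 at -0.96 in TEADi. In set 2, JUNBi lowered 2 of 15 (3.99% of all genes called), MAP2K2 most (-0.90, SE 0.21, adjusted p 0.0015). STAT3i changed 0 of 13 (0.237%), where 2 pathway genes had an unadjusted p under 0.05. Over all genes edgeR called 0 in both.

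Likeness of pattern was described by Pearson's r of log2(TPM + 1) over the 20 ER-Src libraries, among 10399 protein-coding genes with a mean TPM of at least 1. These libraries share 10 groups, so the values are descriptions. The genes nearest to EGFR were KANK1 (0.922), SRRM2 (0.916) and JRK (0.905), and NRG1 was at 0.901 with EGFR. NRG1 was nearest to APBB2 (0.938), FAT4 (0.923) and TGFBR3 (0.923). HBEGF was nearest to GJB2 (0.966), CA12 (0.957) and QSOX1 (0.935), and EREG to GJB2 (0.887), GLIPR1 (0.881) and LPXN (0.858), with EREG and HBEGF at 0.848. GJB2, a gap junction gene, thus stood at the top for both ligands that YAPi raised in ETH. AREG was nearest to ST3GAL4 (0.903), CFL2 (0.9) and PALS1 (0.883), and EPGN to NQO1 (0.902), TMEM40 (0.888) and SRXN1 (0.888), of which NQO1 and SRXN1 encode enzymes of the oxidative stress response. TGFA was nearest to INSC (0.81), DUSP4 (0.806) and DUSP6 (0.773), the last pair being phosphatases of MAP kinases. ERBB2 was nearest to JPH2 (0.882), HCFC1R1 (0.879) and DCAKD (0.843), and ERBB3 to SEMA3B (0.766), GPATCH1 (0.694) and BCL2L2 (0.684). BTC was below the TPM minimum.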

How the data were processed

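RNA-seq of 36 libraries in 18 groups of 2 was used. Per the labels and the study's methods, libraries were made from total RNA with a TruSeq Ribo Profile kit, and the authors trimmed the reads, aligned them with STAR to the transcriptome of GENCODE 30 (hg38), allowing up to 20 alignments per read, and quantified genes with RSEM; the tool versions are not given in the sources used here. The deposited tables hold RSEM's expected counts per gene, which share reads between alignments, and TPM, which the authors' RSEM run scaled by effective length and library composition. Of 61471 identifiers per table, 60725 were Ensembl genes, of which 93.1% had a name in GENCODE 44; the 746 others, at most 0.109% of a library's counts, were left out.

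Expected counts were rounded and tested in R 4.3.3 with DESeq2 1.42.0 (Wald test, two-sided) for each comparison, with an adjusted p threshold of 0.01 over all genes. Alternatives were edgeR 4.0.16 (quasi-likelihood test), TMM size factors, a mean count of at least 10, effective length offsets, a fit with every group of a set, the replicate number as a block, a threshold of 0.05, leaving out each library and, in set 1, controls of both sets. The fits were tested on simulated data. Named genes are the 10 members, tested in every comparison, from the pathway list the called gene with the largest change in each direction, and for each member with a mean TPM of at least 1 the genes most like it. The members and lists were chosen with earlier results of these data known. Columns not tied to a sample were absent. Depth is given with the results; a count of 0 allows up to 3 counts, for counting error only.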

Additional observations from a re-analysis of the deposited data

Results flagged for a closer look

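Responses of EGFR and EPGN drew attention because the effect of a knockdown differed between TAM and ETH by a test of the difference itself. For EGFR the TAZi effect in TAM minus that in ETH was -0.82 (SE 0.18, adjusted p 0.00077 by DESeq2). The adjustment ran over 4328 genes, where the other interactions had 14600 to 16037. EGFR stood at 17.1 and 20.9 TPM in TAZi ETH against 15.1 and 12.4 TPM in Ctrli ETH, and at 6.82 and 7.96 TPM in TAZi TAM against 9.73 and 6.31 TPM in Ctrli TAM, so that all TAZi ETH libraries were above Ctrli while the TAM groups overlapped. With edgeR the adjusted p was 0.12, and without 1 of 6 libraries in turn it lay between 0.03 and 0.17.

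For EPGN the STAT3i effect in TAM minus that in ETH was 1.14 (SE 0.23, adjusted p 0.00011 by DESeq2). EPGN stood at 72.8 and 62.6 TPM in STAT3i TAM against 17.9 and 18.1 TPM in Ctrli TAM, and at 71.8 and 70.7 TPM in STAT3i ETH against 62.4 and 44.8 TPM in Ctrli ETH. The adjusted p was 0.015 with edgeR and 0.18 in the fit over all ER-Src groups. With effective length offsets the interactions gave 1 member call in place of these 2.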

How the results depend on the processing

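Of 49 member values called, 19 kept their call in every alternative and none changed direction. The member calls of the knockdowns in ETH were 5, and 3 with edgeR and 10 in 1 fit over all groups. The 2 interaction calls became 0 with edgeR, 1 with effective length offsets, 1 in 1 fit over all groups, 4 with the replicate block and 5 at an adjusted p under 0.05. The 9 calls of TAM within knockdowns became 5 with effective length offsets, and the 14 of set 1 against controls became 6 with the controls of both sets. The causes of these shifts were not tested. Leaving out 1 library gave 1 to 2 calls for TAM in Ctrli (2 without Ctrli TAM replicate 1), 4 to 10 for the knockdowns in TAM and 2 to 7 for those in ETH. It gave 1 to 4 for the interactions (4 without Ctrli TAM replicate 2), 7 to 10 within knockdowns, 7 to 14 for set 1 against controls, 3 to 8 among its knockdowns (5 and 4 without TAZi replicate 1 or 2, 3 without TEADi replicate 1) and 0 for set 2. In such fits a lone library is assumed to vary like the other groups.

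The labels do not say that a replicate number is shared between cultures. For each gene the log2 difference between the libraries of a group was taken in order of replicate number. These differences were correlated between groups over genes. The correlation ran from -0.053 to 0.26 in comparisons of 2 groups and from -0.058 to 0.368 in the interaction fits. With the block EGFR was called for JUNBi in ETH (adjusted p 0.0029) and for the JUNBi interaction (0.0002), and EGFR in YAPi of set 1 lost its call (0.014). The replicate block moved the other counts to 6 for the knockdowns in TAM, 10 for set 1 against controls and 11 among its knockdowns, where the correlations were 0.477 to 0.532. In set 2 alone, no paired analysis was possible because its controls and knockdowns share no replicate number. For YAPi_TAZi in set 1, 1 mean dispersion for all genes, chosen after seeing the data, gave 13 calls in that family. With TMM the median of all genes in YAPi, TAZi, YAPi_TAZi and TEADi of set 1 was -0.13, -0.11, -0.10 and -0.11, against -0.01, 0.02, 0.06 and -0.01. Leaving the 7 RNAs without poly(A) out of the TPM total moved 123 of 180 group levels by more than 1 SD. Depth limits BTC, NRG1, HBEGF and ERBB3 most, and EPGN in MDA-MB-231.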
